A study of Mus musculus with 12 samples.

Results

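The miRNA profile of nuclear transfer embryonic stem cells (NT-ESCs) was compared with that of embryonic stem cells (ESCs) in 2 against 3 small RNA libraries. A miRNA was included if its value lay above the lowest value of the table in at least 2 of these 5 libraries, which held for 860 of the 1042 miRNAs listed. The ESCs were the mouse line E14 (strain 129/ola), in libraries 2, 3 and 4. The NT-ESCs, in libraries 71 and 72, came from 1 line made by moving the nucleus of a mouse embryonic fibroblast (MEF) of the C57B6/129SvJae F1 background into an oocyte without its own nucleus. Libraries of MEFs (3), of induced pluripotent stem cells (iPSCs) made from MEFs whose Oct4, Sox2, Klf4 and c-Myc transgenes were dox-inducible (2), and of NT-iPSCs made by transfer of an iPSC nucleus (2) complete the 12 libraries of the study and are cited here for their levels. Both types compared were grown on irradiated MEF feeder cells with leukaemia inhibitory factor. The libraries of a type were batches of RNA from 1 line, so their spread says nothing of how lines vary, and strain, line and type cannot be told apart. In the study's accounting of its reads, the NT-ESC libraries also lost a smaller share to a missing adaptor or insert than the ESC libraries. Those of iPSCs and NT-iPSCs were low like the NT-ESC libraries, and those of MEFs were high like the ESC libraries. Library handling and cell type cannot be told apart either, and the levels cited for the other libraries carry the same limit.

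A miRNA is cut from a hairpin in its primary transcript, and either arm of the hairpin (5p or 3p) can be loaded into an Argonaute protein. Bases 2 to 8 of the loaded strand, the seed, guide it to its target mRNAs, so that miRNAs with the same seed share many targets. Mouse pluripotent cells are known for the miR-290 and miR-302 clusters, which promote passage through the cell cycle, while the let-7 family, held back by Lin28 in stem cells, increases as cells differentiate. Many hairpins lie in clusters on 1 primary transcript, among them the imprinted clusters of the Dlk1-Dio3 region and of an intron of Sfmbt2.

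The sequences on which the comparison turned are given from RefSeq (GRCm38.p6), 5′ to 3′, with the seed in capitals. A sequence was matched for 685 of the 860 miRNAs. The first set holds let-7 miRNAs, which together took more of the NT-ESC reads than any other seed. The second holds 4 of the 6 miRNAs with the seed of miR-17, all of them lower in NT-ESCs.
let-7a-5p: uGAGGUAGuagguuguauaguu
let-7c-5p: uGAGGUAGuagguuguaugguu
let-7f-5p: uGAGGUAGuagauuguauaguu
miR-98-5p: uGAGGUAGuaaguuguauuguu
miR-17-5p: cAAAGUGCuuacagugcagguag
miR-20a-5p: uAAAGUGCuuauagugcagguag
miR-93-5p: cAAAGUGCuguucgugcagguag
miR-106b-5p: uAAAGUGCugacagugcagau

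The next sets are seeds of the pluripotency clusters, whose members did not move together. The seed of the miR-291a, miR-294, miR-295 and miR-302 3p arms differs from that of miR-17 by a shift of 1 base, and the 5p arms of miR-290, miR-292 and miR-293 share another.
miR-291a-3p: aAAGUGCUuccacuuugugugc
miR-294-3p: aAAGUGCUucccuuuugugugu
miR-295-3p: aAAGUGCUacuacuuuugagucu
miR-302b-3p: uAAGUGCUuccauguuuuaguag
miR-302d-3p: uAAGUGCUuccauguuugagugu
miR-290-5p: aCUCAAACuaugggggcacuuu
miR-292-5p: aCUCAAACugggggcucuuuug
miR-293-5p: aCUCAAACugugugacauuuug

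Shown last are the miR-25 and miR-29 seeds, whose totals rose, the pair miR-103-3p and miR-107-3p, the cluster of miR-183, miR-96 and miR-182, which lost nearly all of its reads, and 3 hairpins whose arms moved in opposite directions.
miR-25-3p: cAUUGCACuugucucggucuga
miR-92a-3p: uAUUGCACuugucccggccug
miR-363-3p: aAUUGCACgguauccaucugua
miR-367-3p: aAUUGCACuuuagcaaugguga
miR-29a-3p: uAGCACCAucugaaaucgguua
miR-29b-3p: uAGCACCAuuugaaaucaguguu
miR-29c-3p: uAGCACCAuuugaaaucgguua
miR-103-3p: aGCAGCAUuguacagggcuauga
miR-107-3p: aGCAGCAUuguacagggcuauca
miR-182-5p: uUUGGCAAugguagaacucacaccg
miR-183-5p: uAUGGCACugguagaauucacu
miR-96-5p: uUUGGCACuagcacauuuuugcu
miR-376a-5p: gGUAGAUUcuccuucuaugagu
miR-376a-3p: aUCGUAGAggaaaauccacgu
miR-221-5p: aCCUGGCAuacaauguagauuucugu
miR-221-3p: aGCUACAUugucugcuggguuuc
miR-423-5p: uGAGGGGCagagagcgagacuuu
miR-423-3p: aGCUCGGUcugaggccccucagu

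The deposited values were variance stabilized (VST), a log2-like scale from which the reads of each miRNA could be recovered as whole numbers. The ESC libraries held 4863365 to 5771398 miRNA reads and the NT-ESC libraries 6236953 and 7567263. Levels are given below as normalized reads, that is reads divided by the size factor of the library, and differences as the mean VST in NT-ESCs minus that in ESCs, in log2 units with the standard error (SE). Over the 860 miRNAs, Pearson's r of VST was 0.976 to 0.979 between ESC libraries, 0.985 between the NT-ESC libraries and 0.801 to 0.809 between the types, where the points share the depth of their libraries. The median absolute difference between libraries was 0.216 to 0.315 within a type and 1.97 to 2.11 between types. Replicates were thus distinct libraries, whose recovered reads gave a chi-square of 51.5 to 186 per degree of freedom. Each library held 775 to 799 of the 860 miRNAs. Among the 860, 32 miRNAs were at 0 reads in every ESC library and 32 others in every NT-ESC library. At the edge of the rule, the 64 miRNAs seen in exactly 2 of the 5 libraries had a median highest count of 2 reads, and the 34 seen in 1 library had a median of 1 read.

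Most of the profile differed between the types. A test was possible for 732 miRNAs (10 reads or more in 2 or more of the 12 libraries), of which 555 (75.8%) had an adjusted p under 0.05 (limma on the VST values), 291 higher in NT-ESCs (39.8%) and 264 lower (36.1%). These percentages over all miRNAs are the background against which the families below are to be read. All of the calls fell among the 730 tested miRNAs of the comparison. The other 130 of the 860 had too few reads for a test, at most 15 in any library. The values of the 2 types did not overlap for 630 of the miRNAs tested (86.1%). A call with a difference of at least 1 was made for 500 of the 732 (68.3%). The difference of the called miRNAs was at least 2 for 184 higher and 183 lower, and at least 4 for 71 higher and 65 lower. Differences ran from -8.46 to 8.07, with a median of 0.26 (0.14 with TMM-type and 0.46 with upper quartile scaling) and a median absolute value of 2.03. A model of only the 5 libraries compared gave 580 calls.

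**Figure D1:**
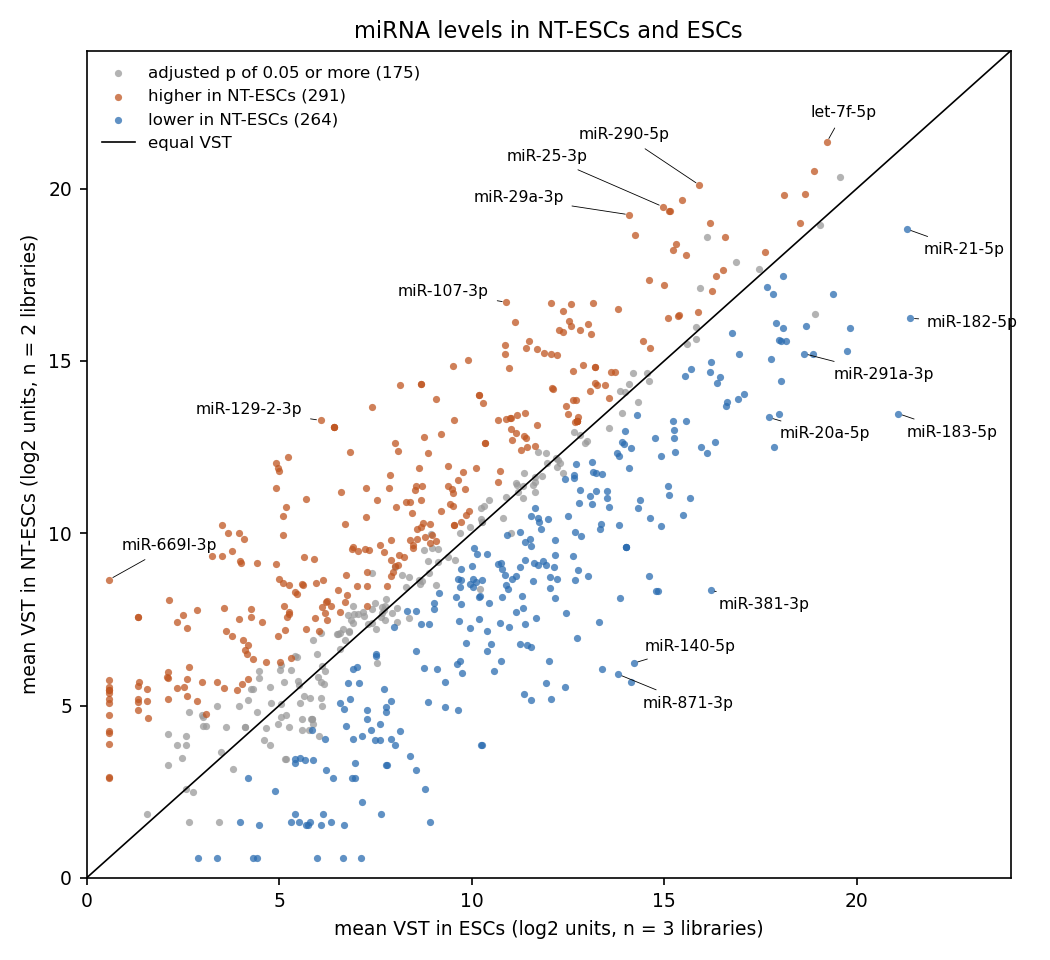
Mean VST of each tested miRNA in ESCs (x axis, log2 units, 3 libraries) and in NT-ESCs (y axis, log2 units, 2 libraries), coloured by the limma call at an adjusted p of 0.05. The 291 miRNAs called higher lie above the line of equal VST and the 264 called lower lie below it.

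The most abundant miRNAs of ESCs and NT-ESCs were different, with 2 of the leading 10 in common, let-7f-5p and miR-293-3p. In ESCs, miR-182-5p took 11.5% of the miRNA reads, miR-21-5p 10.8% and miR-183-5p 9.24%, followed by miR-143-3p, miR-379-5p, miR-293-3p, miR-541-5p, let-7f-5p, miR-295-3p and miR-292-5p. In NT-ESCs, let-7f-5p took 11.6% and let-7a-5p 6.48%, followed by miR-293-3p, miR-290-5p, let-7c-5p, miR-140-3p, miR-669c-5p, miR-25-3p and miR-199a-3p, which has the same mature sequence as miR-199b-3p and nearly the same number of reads, so that the pair cannot be told apart. Summed over a family or cluster, the let-7 family went from 7.75% ± 0.961 (SD, n = 3) to 26.9% ± 0.0985 (SD, n = 2) of the reads and the miR-290 cluster from 10.96% ± 1.05 to 19.6% ± 0.0225. The miR-183 cluster went from 20.9% ± 0.945 to 0.443% ± 0.0216 and the Dlk1-Dio3 cluster from 11.2% ± 0.416 to 5.996% ± 0.327. None of these shares overlapped between the types, but 2 libraries against 3 cannot give a p below 0.2 in an exact permutation test made two-sided by doubling the smaller tail, and that was the p of each. The shares of the miR-106a to miR-363 cluster and of the imprinted loci outside Dlk1-Dio3 and Sfmbt2 did overlap (p = 0.8 in the same exact test).

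**Figure D2:**
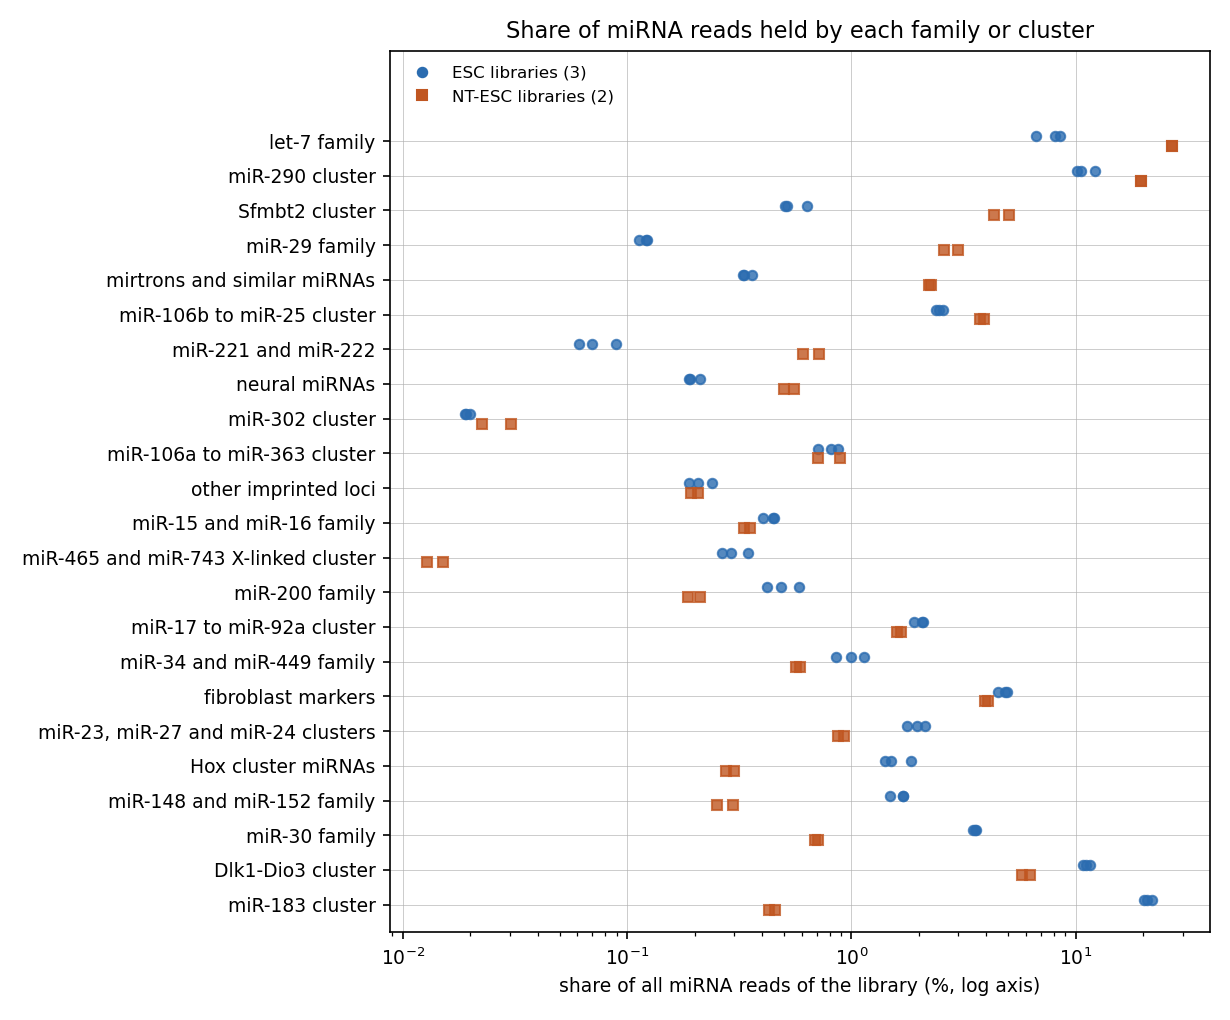
Share of the miRNA reads of each library held by 23 families or clusters (x axis, %, log axis), with 1 circle per ESC library and 1 square per NT-ESC library and the lists ordered by the change in mean share. The let-7 family is near 26.9% in both NT-ESC libraries against 6.68% to 8.52% in ESCs, and the miR-183 cluster is at 0.428% to 0.458% against a mean of 20.9%.

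The miR-183 cluster, a transcript known from sensory cells that is also abundant in ESCs, lost nearly all of its reads in NT-ESCs. miR-183-5p (hairpin on chromosome 6 from 30169668 to 30169737 of GRCm38, minus strand) had 541874, 521446 and 558226 normalized reads in the ESC libraries and 2960.1 and 2579 in the NT-ESC libraries. All NT-ESC values were below all ESC values, and the mean was 195-fold lower, with a difference of -7.61 (SE 0.13, adjusted p = 5.93e-12). This was the smallest p of all miRNAs tested. miR-182-5p had 641568, 686680.2 and 685775 normalized reads in ESCs and 18948 and 18663 in NT-ESCs, 35.7-fold lower, a difference of -5.16 (adjusted p = 1.26e-10). The third miRNA of the transcript, miR-96-5p, fell less, from 11351, 12220.4 and 11978 to 2456 and 2267 normalized reads, a difference of -2.33 (adjusted p = 4.59e-07). Of the opposite arms, miR-183-3p was lower by a difference of -1.65 (adjusted p = 5.13e-06), miR-96-3p was higher at 45.1 to 51.7 against 7.98 to 9.49 normalized reads (difference 2.40, adjusted p = 0.0063), and miR-182-3p stood at -0.12 with a 95% interval of -0.90 to 0.65. In the other libraries of the study miR-183-5p averaged 1986 normalized reads in iPSCs, 2044 in NT-iPSCs and 10224 in MEFs.

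All 9 mature let-7 miRNAs with the seed GAGGUAG, which are known to restrain growth and to accumulate on differentiation, were higher in NT-ESCs. let-7f-5p had 137201, 173966 and 139209 normalized reads in ESCs and 639848 and 659971 in NT-ESCs, 4.33-fold higher, with a difference of 2.12 (SE 0.16, adjusted p = 2.08e-07). let-7a-5p went from 132218, 132977 and 92167 to 351128 and 378769 (difference 1.63, adjusted p = 7.14e-06) and let-7c-5p from 112941, 117039 and 78418 to 227884 and 234595 (difference 1.19, adjusted p = 9.40e-05). For all 9 the values of the types did not overlap, as for 86.1% of all miRNAs tested. The differences of the other members of the seed ran from 0.88 for miR-98-5p to 2.75 for let-7i-5p. let-7a-5p and let-7f-5p differ by G12A and let-7a-5p and let-7c-5p by A19G, counted from the 5′ end, so that reads of 1 may be assigned to another. The seed total, with 7.75% ± 0.961% (SD, n = 3) of the reads in ESCs and 26.9% ± 0.101% (SD, n = 2) in NT-ESCs, was higher by 1.75 (SE 0.16, adjusted p = 5.17e-07). Counting the rare passenger strands and miR-202, 13 of 20 tested miRNAs of the family were higher (65.0%), and 2 were lower, let-7g-3p and let-7c-1-3p, both below 10 normalized reads in every library of either type. With voom on the recovered reads 4 were lower. The largest differences after let-7g-3p (-3.83) were those of the rare miR-202-5p (3.73), let-7e-3p (2.88), let-7i-5p, miR-98-3p (2.34) and let-7c-1-3p (-2.31), on 0.73 to 5.56 normalized reads in ESCs for all but let-7i-5p. The call of let-7c-1-3p was lost in the model of the 5 libraries (adjusted p = 0.11) and without any of 4 libraries, ESC 2, ESC 3, NT-ESC 71 or NT-ESC 72 (adjusted p = 0.114 to 0.131). The mean level of let-7f-5p was 615261 normalized reads in MEFs, 936919 in NT-iPSCs and 175379.7 in iPSCs.

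The 6 miRNAs with the seed of miR-17, which drive proliferation in many cell types, were all lower in NT-ESCs, although they come from 3 separate transcripts. From the miR-17 to miR-92a cluster on chromosome 14, miR-20a-5p fell from 48883, 56346 and 53224 to 2664 and 2453 normalized reads, 20.6-fold lower, with a difference of -4.37 (SE 0.25, adjusted p = 2.73e-08). miR-17-5p fell from 31394, 36287 and 33692 to 4279.8 and 3992 (difference -3.03, adjusted p = 6.84e-09). From the miR-106b to miR-25 cluster, which lies in an intron of Mcm7 on chromosome 5, miR-93-5p fell from 100959, 112579.7 and 95718 to 15401 and 16572 (difference -2.69, adjusted p = 9.34e-08) and miR-106b-5p from 30982, 31109.7 and 27714 to 3577 and 3863 (difference -3.01, adjusted p = 9.19e-08). From the X-linked miR-106a to miR-363 cluster, miR-20b-5p and miR-106a-5p were lower by differences of -2.83 and -2.50. The seed total went from 4.33% ± 0.182% (SD, n = 3) to 0.562% ± 0.014% (SD, n = 2) of the reads, a difference of -3.01 (adjusted p = 1.19e-09).

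Other miRNAs of the same 3 transcripts rose in the same libraries. miR-25-3p had 6797, 8083 and 8689 normalized reads in ESCs and 170244 and 184489.8 in NT-ESCs, 22.6-fold higher, with a difference of 4.503 (SE 0.20, adjusted p = 3.39e-09), while miR-93-5p and miR-106b-5p of its transcript fell. miR-92a-3p rose from a mean of 9367 to 74111 (difference 2.98, adjusted p = 1.78e-07) and its passenger strand miR-92a-1-5p by 1.14 (adjusted p = 0.000339). In all, 3 of 12 tested miRNAs of the miR-17 to miR-92a cluster were higher and 7 lower (median -2.08), the lower ones including miR-18a-5p (-3.72), miR-19a-3p (-3.82) and miR-20a-3p (-3.99), and miR-19a-5p being higher by 3.53. The miR-92a-3p and miR-19b-3p of this list are also made from the X-linked cluster, so the counts are not of the transcript on chromosome 14 alone. Of the miR-106a to miR-363 cluster, 5 of 10 were higher and 4 lower, from miR-19b-2-5p at -4.86 to miR-106a-3p at 6.08 (on 1 to 3 reads in each ESC library), with miR-363-5p at 3.54 and miR-18b-3p at 4.19 (adjusted p = 6.11e-08 and 2.39e-07). Of the 6 miRNAs of the miR-106b to miR-25 cluster, miR-25-5p was also higher (3.43, adjusted p = 9.94e-08), and miR-93-3p (-0.26, 95% interval -0.99 to 0.47) and miR-106b-3p (0.28, -0.07 to 0.63) did not pass the test. miR-106b-3p did pass under upper quartile scaling (adjusted p = 0.00767) and when the 10 most abundant miRNAs were left out of the scaling (adjusted p = 0.0338).

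The seed AUUGCAC, shared by miR-25-3p, miR-92a-3p, miR-92b-3p, miR-363-3p, miR-32-5p and miR-367-3p, held 0.434% ± 0.0421% (SD, n = 3) of the reads in ESCs and 4.71% ± 0.0914% (SD, n = 2) in NT-ESCs, a difference of 3.39 (adjusted p = 1.44e-10). It gained through miR-25-3p, miR-92a-3p and miR-92b-3p (3.84), while miR-32-5p (-1.90) and miR-367-3p (-1.09) were lower, the call of miR-367-3p being lost without NT-ESC 72 (adjusted p = 0.0861), and miR-363-3p stood at 0.08 with a 95% interval of -0.33 to 0.49. The 3p arms of the miR-29 family, known to act on collagens and on DNA methyltransferases, all rose, by 1.06 to 5.52. miR-29a-3p had 4152, 4757 and 3939 normalized reads in ESCs and 159486 and 142643 in NT-ESCs (difference 5.14, SE 0.17, adjusted p = 5.16e-10). miR-29c-3p, which differs from it by C10U, went from 28.5, 30.5 and 22.8 to 1305 and 1251 (difference 5.52, adjusted p = 1.32e-09). miR-29b-3p, which is made from hairpins in the transcripts of both miR-29a and miR-29c, rose by 1.06 (adjusted p = 0.00159). The passenger strands miR-29b-1-5p (-3.70) and miR-29a-5p (-1.24) were lower, and miR-29c-5p stood at 0.02 (95% interval -0.81 to 0.85). miR-103-3p and miR-107-3p differ by G22C, at the base before the last, so that reads of 1 may be assigned to the other. miR-107-3p rose from 399.8, 463 and 541 to 25278 and 26658 normalized reads (difference 5.80, SE 0.21, adjusted p = 1.14e-09), and miR-103-3p went from a mean of 92803 to 128109 (difference 0.47, SE 0.19, adjusted p = 0.0404). The call of miR-103-3p was lost without ESC 2, ESC 3, NT-ESC 71 or NT-ESC 72 (adjusted p = 0.0809 to 0.13), with TMM-type scaling (0.17), with no filter on reads (0.0506) and with moderation without a trend (0.0637).

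**Figure D3:**
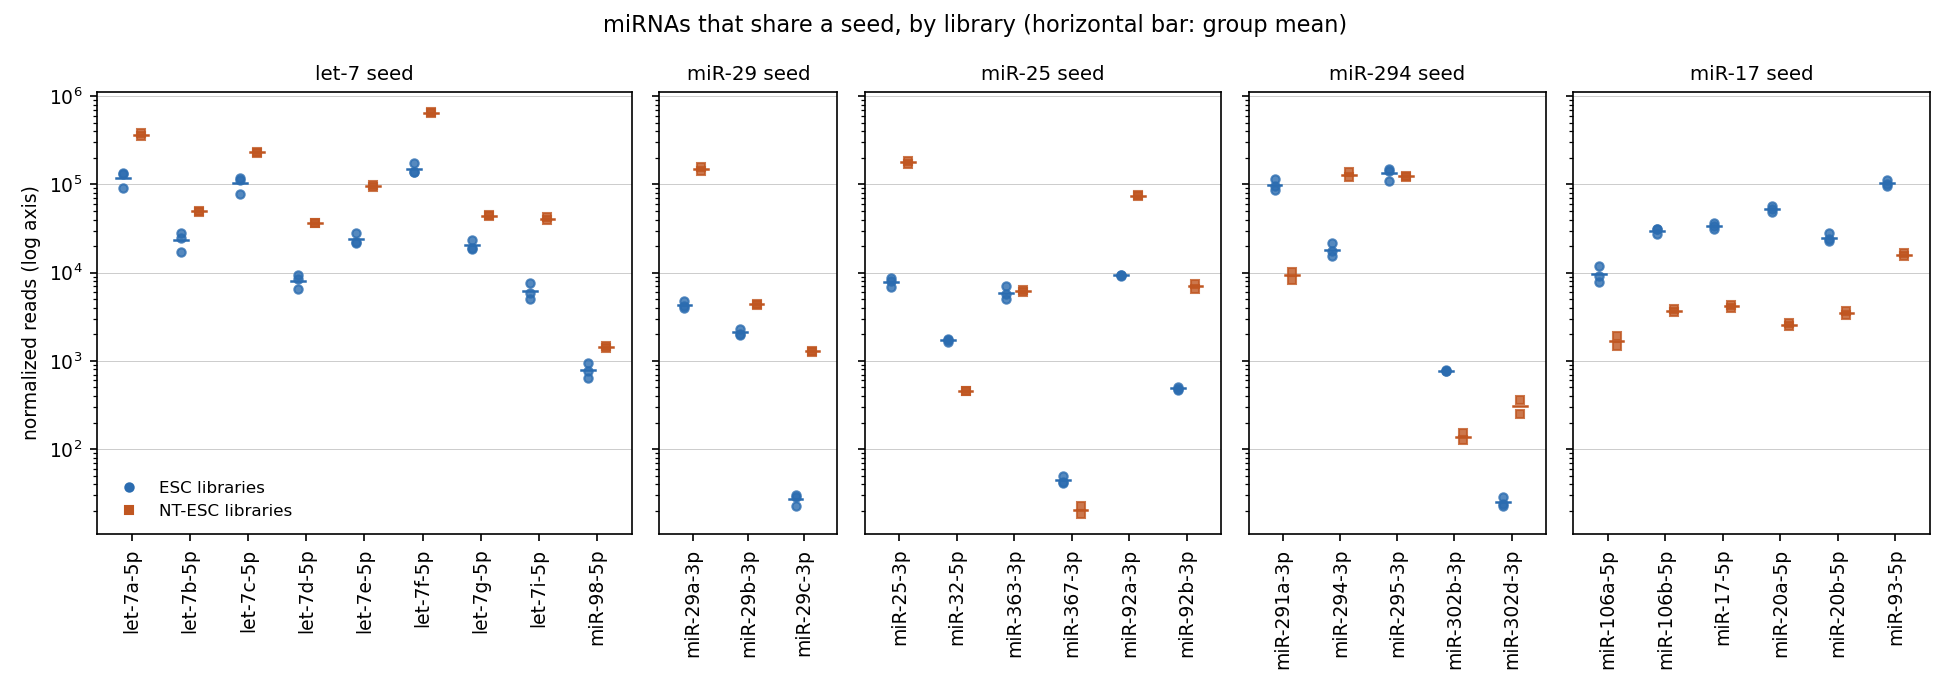
Normalized reads (log axis) of the tested miRNAs of 5 seeds, with 1 circle per ESC library, 1 square per NT-ESC library and a bar at the mean of each group. All 9 miRNAs with the let-7 seed lie higher in NT-ESCs and all 6 with the miR-17 seed lie lower, while the miR-25 and miR-294 seeds hold miRNAs that moved either way.

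The miR-290 cluster was abundant in both types and took 0.000477% ± 0.000673 (SD, n = 3) of the reads in MEFs. All 14 mature miRNAs of the miR-290 cluster (chromosome 7 from 3218626 to 3220841 on GRCm38) were present. Their values did not overlap between the types for 13, where 86.1% of all miRNAs tested did not overlap. miR-290-5p rose from 14041, 13881 and 17521 to 253938 and 295549.6 normalized reads, 18.1-fold higher, a difference of 4.19 (SE 0.69, adjusted p = 0.000187). miR-294-5p rose from 431, 420.2 and 512 to 10855 and 10946 (difference 4.59, adjusted p = 1.43e-09) and miR-294-3p, a promoter of the ES cell cycle, from 17801, 15545 and 21489 to 137943 and 120787 (difference 2.83, adjusted p = 0.0184). The last call was lost when either NT-ESC library was left out of the model of 12 libraries, in which its SE was 0.95. With only the 5 libraries compared, miR-294-3p was called with an SE of 0.16 (adjusted p = 1.23e-05). miR-291a-3p, with the same seed, fell from 87249, 96146 and 115143 to 10277 and 8309 (difference -3.42, adjusted p = 0.00103), and miR-295-3p had 107978, 150809 and 140659.9 in ESCs and 124364 and 121630.1 in NT-ESCs, a difference of -0.10. The seed total AAGUGCU, with 4.30% ± 0.576% (SD, n = 3) of ESC reads and 4.66% ± 0.408% (SD, n = 2) of NT-ESC reads, differed by 0.07 with a 95% interval of -1.76 to 1.89. miR-292-5p had 114396, 114442 and 133571 normalized reads in ESCs and 20044 and 21151 in NT-ESCs, without overlap, but its difference of -2.55 did not pass (adjusted p = 0.134).

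The number of calls in the miR-290 cluster depended on the libraries in the model. In the model of 12 libraries 6 of 14 were higher (42.9%) and 1 was lower, with a median of 1.42, the higher ones including miR-291b-5p (3.48) and miR-295-5p (3.06). With the 5 libraries of ESCs and NT-ESCs alone 11 were higher and 2 lower, and with voom on the recovered reads the counts were also 11 and 2. miR-292-5p passed in the model of 5 libraries (adjusted p = 5.75e-06), as did miR-293-3p, which went from 180440.3, 190057 and 196418 to 327699.6 and 311893 normalized reads (difference 0.76, adjusted p = 0.00181, against 0.299 in the model of 12). As VST, miR-292-5p averaged 18.92 ± 0.13 (SD, n = 3) across the ESC libraries, 16.37 ± 0.06 (SD, n = 2) across the NT-ESC libraries and 2.74 ± 3.74 (SD, n = 3) across those of MEFs, whose few reads enter the estimate of the spread in the larger model. miR-295-3p passed in neither (adjusted p = 0.618 in the model of 5). The miR-302 cluster, typical of later pluripotent stages, was rare in both types, with 0.0194% ± 0.000468 (SD, n = 3) of the reads in ESCs and 0.0265% ± 0.00547 (SD, n = 2) in NT-ESCs. Of its 9 tested miRNAs 5 were higher and 2 lower. miR-302d-3p rose from 22.5, 28.4 and 23.9 to 361 and 252 normalized reads (difference 3.56, adjusted p = 4.65e-07) and miR-302b-3p fell from 785, 764 and 765 to 151 and 125 (difference -2.48, adjusted p = 0.0125). miR-302d-5p, miR-302b-5p and miR-302a-5p were higher by 3.57, 3.69 and 1.98. The difference of miR-302b-5p rested on a mean of 0 normalized reads in ESCs and 4.03 in NT-ESCs. miR-302c-5p did not pass (95% interval of the difference -0.08 to 3.28) but did without ESC 3 (adjusted p = 0.0354) and in the model of 5 libraries (adjusted p = 0.0457). The counts were 3 higher and 2 lower without ESC 2, 3 and 3 without NT-ESC 71, and 4 and 0 without NT-ESC 72. In the model of 12 libraries the call of miR-302a-5p was lost without any 1 of the 5 libraries compared. Those of miR-302b-3p and miR-367-3p were lost without NT-ESC 72. All of these miRNAs were called in the model of 5 libraries (adjusted p = 4.25e-05, 8.27e-06 and 0.00749 in that order). iPSCs had 1532 normalized reads of miR-302d-3p and 3155 of miR-302a-5p on average.

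The arms of a hairpin often moved apart. The difference between the 5p and the 3p arm within a library does not depend on the scaling between libraries where both arms have many reads. At low counts, which VST compresses, some dependence remains, and other scalings were not tried for the arms. The difference between the arms could be tested for 263 hairpins. It changed in 194 (73.8%), toward the 5p arm in 83 (31.6%) and toward the 3p arm in 111 (42.2%), with a median absolute change of 2.55. The values of the types did not overlap in 224 (85.2%). Both arms passed the test on their own in 154 hairpins. They moved in opposite directions in 57 of these (21.7% of the 263) and in the same direction in 97, with 53 pairs higher and 44 lower. In 50 hairpins the more abundant arm was another one in all libraries of NT-ESCs than in all libraries of ESCs, 29 times the 3p and 21 times the 5p arm.

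**Figure D4:**
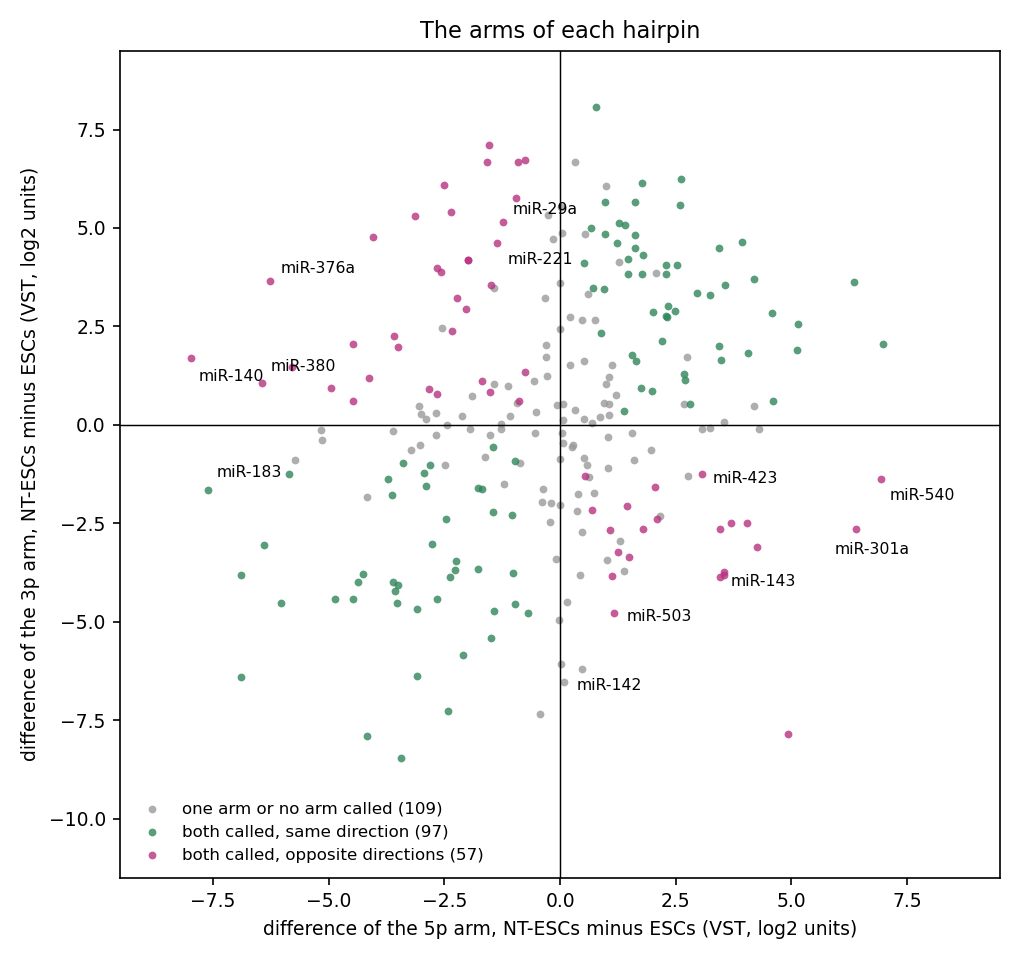
Difference of the 5p arm (x axis) and of the 3p arm (y axis) between NT-ESCs and ESCs in VST (log2 units) for 263 hairpins. Hairpins whose arms were both called fall where the signs are alike (97) or unlike (57), with miR-376a and miR-140 at the upper left and miR-540 and miR-301a at the lower right.

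miR-376a, of the Dlk1-Dio3 region, gave the largest change among those with the smallest p. Its 5p minus its 3p VST was 0.16, 0.35 and 0.17 in the ESC libraries and -9.33 and -10.04 in the NT-ESC libraries, a change of -9.91 (SE 0.33, adjusted p = 6.38e-09). Between the types miR-376a-5p fell from 829, 959 and 1067 to 14.6 and 9.20 normalized reads, and miR-376a-3p rose from a mean of 815 to 10156. In the miR-140 hairpin, known from cartilage, miR-140-5p fell from 4509, 4978 and 4385 to 16.8 and 18.4 and miR-140-3p rose from 67338, 66252 and 73472 to 214971 and 233478 normalized reads (change -9.68, adjusted p = 6.38e-09). The other hairpins with the smallest p among those that moved toward the 3p arm were miR-297a (-8.25), miR-362 (-7.76), miR-380 (-7.50), miR-183 (-5.96), miR-376b (-7.26) and miR-29a (-6.38). Those that moved toward the 5p arm were miR-540 (8.32), miR-503 (5.94), miR-142 (6.62), miR-423 (4.32), miR-143 (7.33), miR-301a (9.02), miR-1193 (4.40) and miR-324 (4.24), all with an adjusted p of at most 1.22e-06. In miR-423 the 5p arm rose from a mean of 10033 to 83441 normalized reads while the 3p arm fell from 3707 to 1551. In miR-221, whose arms were named with its family, the 5p arm fell from 1759, 1946 and 3132 to 864 and 846 and the 3p arm rose from 865, 1312 and 997 to 26298 and 25061. Summed over both arms, 373 of 470 hairpins differed (79.4%), 192 higher (40.9%) and 181 lower (38.5%), and 403 did not overlap between the types (85.7%). The hairpin total of miR-183 was -7.24 (adjusted p = 2.81e-13), that of miR-25 4.37 (adjusted p = 4.11e-10) and that of miR-423 2.63 (adjusted p = 5.78e-07).

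The miRNAs grouped by name with the Sfmbt2 intron, an imprinted rodent cluster, were mostly higher in NT-ESCs, at 52 of 73 (71.2%), with 6 lower and a median of 1.78. Of their matched hairpins 31 lie on chromosome 2 from 10466663 to 10518279 (GRCm38), 2 on chromosome 3, 1 on chromosome 10 and 1 on chromosome 13, so these counts are not of the intron alone. Many of them are near-identical copies whose reads cannot be told apart, and counting those with equal values once gave 45 higher and 6 lower of 65. Under upper quartile scaling 3 of the 73 were lower. miR-669c-5p, the most abundant, rose from 13342, 10784 and 9211 to 183499 and 221203 normalized reads (difference 4.20, adjusted p = 3.64e-09). miR-669l-3p had 0 reads in every ESC library and 86.0 and 110.4 normalized reads in NT-ESCs, at least 29.1-fold higher than 3 reads per ESC library. miR-466h-3p went from 4.75, 10.5 and 5.70 to 929 and 1106 (difference 7.11, adjusted p = 8.13e-09), and miR-297a-3p, miR-297b-3p and miR-297c-3p, with the same reads, had 21.4, 17.9 and 21.6 in ESCs and 2055 and 2213 in NT-ESCs (difference 6.67). The mean of miR-669c-5p was 2182 normalized reads in MEFs.

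In the Dlk1-Dio3 cluster on chromosome 12, expressed from the maternal chromosome and known as a mark of iPSCs with full developmental capacity, 44 of 96 tested miRNAs were higher (45.8%) and 32 lower (33.3%), shares near those over all miRNAs, with a median of 0.33 (0.20 with TMM-type and 0.56 with upper quartile scaling) and differences from -7.85 to 6.94. miR-381-3p fell from 17331, 19318 and 18568 to 87.5 and 70.8 normalized reads (232-fold, difference -7.85, adjusted p = 1.98e-09), and miR-380-5p (-6.44), miR-679-5p (-6.89) and miR-376a-5p (-6.27) also fell. miR-379-5p, the most abundant of the cluster in ESCs, went from 249742, 237987 and 166242 to 9077 and 10278 (difference -4.47, adjusted p = 1.18e-08) and miR-541-5p from 146148, 159910.3 and 199639 to 34097 and 27162 (difference -2.46, adjusted p = 3.21e-07). In the other direction, miR-540-5p rose from 5.93, 5.27 and 10.2 to 831 and 1035 (difference 6.94, adjusted p = 2.14e-09) and miR-329-3p from 47.5, 77.9 and 84.3 to 4952 and 4808 (difference 6.15, adjusted p = 2.14e-09). The seed of miR-379-5p is shared with miR-1193-5p of the same region, which rose (4.29, adjusted p = 1.95e-08), so that the seed total of -4.29 was that of the more abundant miRNA.

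The miR-465 and miR-743 cluster on the X chromosome, best known from the testis, was lower in NT-ESCs in 20 of 27 tested miRNAs (74.1%), with a median of -4.17, and the other 7 were not called. Without ESC 2, however, 2 of the 27 were called higher. miR-871-3p fell from 4311, 3667 and 2661 to 17.5 and 11.04 normalized reads (249-fold, difference -7.89, adjusted p = 9.47e-08), miR-741-3p from 2847, 2826 and 2196 to 11.7 and 20.2 and miR-878-5p from 1421, 1324 and 1294 to 8.02 and 13.8. miR-463-3p had 169.6, 128 and 71.8 in ESCs and 0 and 0.92 in NT-ESCs, the latter from at most 1 read. miR-878-3p (-6.39) and miR-743a-3p (-6.38) fell likewise. In MEFs there was a mean of 4.92 normalized reads of miR-871-3p. Of 10 miRNAs from other imprinted loci, 4 were higher and 4 lower, ranging from miR-675-3p of H19 at -3.73 to miR-296-5p of the Gnas locus. miR-675-3p was near the limit of detection, with a mean of 4.54 normalized reads in ESCs and 0 in NT-ESCs. miR-296-5p rose from 83.0, 106 and 129 to 1716 and 1719 (difference 4.03, adjusted p = 2.02e-07) while miR-296-3p fell (-2.49). miR-335-3p (-2.28) was lower. miR-675-5p (3.54) and miR-483-3p (2.67) were higher, on means of only 0.35 and 2.57 normalized reads in ESCs and 6.79 and 11.72 in NT-ESCs. The call of miR-483-3p was lost in the model of 5 libraries (adjusted p = 0.0765) and without either NT-ESC library (adjusted p = 0.0847 and 0.0709).

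Markers of fibroblasts, the donor cells of NT-ESCs and the feeder cells of both types, were present in both. In bulk RNA, fewer cells of a type and less RNA per cell cannot be told apart. Of 24 tested markers 10 were higher in NT-ESCs and 11 lower, with a median of -0.49 (-0.15 without ESC 3, -0.20 without NT-ESC 71 and -0.28 with upper quartile scaling), and all 24 were above 0 in at least 1 library of each type. Their summed share was 4.92%, 4.83% and 4.53% of the reads in the ESC libraries, 3.93% and 4.07% in the NT-ESC libraries and 19.0% ± 2.19 (SD, n = 3) in MEFs. The part of feeder cells in the results was not tested. miR-206-3p, a muscle miRNA that took the most reads of these markers in MEFs (1095002 normalized reads on average), had 1547, 2430.4 and 2123 in ESCs and 1691 and 1482 in NT-ESCs, a difference of -0.34 (95% interval -0.78 to 0.11), which passed without ESC 2 (adjusted p = 0.0268). miR-143-3p, known from smooth muscle, fell from 234878, 240236 and 205746 to 14440.2 and 16663 (difference -3.87, adjusted p = 5.82e-08), and miR-143-5p of the same hairpin rose (3.46, adjusted p = 3.64e-05). miR-199a-3p rose from 7823, 9275 and 9774 to 157029 and 165689 (difference 4.18, adjusted p = 9.51e-09), and miR-199b-3p, with nearly the same reads, by 4.21. miR-10b-5p (-3.58) and miR-10b-3p (-4.21) fell. miR-21-5p, abundant in fibroblasts but not on the list, fell from 649489, 709592 and 544575 to 105636 and 121243 (difference -2.48, adjusted p = 1.03e-07), with a mean of 2874423 normalized reads in MEFs.

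miRNAs of the Hox clusters, which follow position along the body axis, were lower in NT-ESCs in 8 of 11 (72.7%) and higher in 2, with a median of -2.97. miR-196a-5p fell from 70881, 58217 and 46482 to 1336 and 1467 normalized reads (41.8-fold, difference -5.36, adjusted p = 1.45e-09) and miR-196b-5p from 1572, 1723 and 1498 to 91.8 and 102 (difference -4.03, adjusted p = 6.22e-09). miR-196a-2-3p (-3.67) fell, and miR-196b-3p, at 0 reads in every ESC library, had 13.1 and 6.44 in NT-ESCs. The 2 higher calls became 1 without ESC 3, without ESC 4, without NT-ESC 72, in the model of 5 libraries, with TMM-type scaling and with no filter on reads, and 3 under upper quartile scaling, scaling without the 10 most abundant miRNAs and moderation without a trend.

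Among families outside these clusters, 4 were lower in most members. In the miR-30 family, 9 of 11 were lower and 1 higher (median -1.69). miR-30e-5p went from 65659, 69072 and 61348 to 4963 and 5715 normalized reads (difference -3.62, adjusted p = 2.45e-09), and miR-30e-3p (-4.001), miR-30d-3p (-3.87), miR-30d-5p (-2.37), miR-30a-5p (-1.78) and miR-30b-5p (-1.69) were lower too. In the family of miR-148 and miR-152, known to act on Dnmt1, 5 of 6 were lower. miR-148a-3p fell from 56217, 69640.2 and 63799 to 2756 and 2692 (difference -4.53, adjusted p = 6.40e-10), and miR-148a-5p (-6.04), miR-148b-5p (-4.25) and miR-148b-3p (-3.79) fell as well. miR-152-3p had 11704, 13092 and 11546 in ESCs and 9784 and 12982 in NT-ESCs, overlapping values with a difference of -0.10 (95% interval -0.74 to 0.54), and the low miR-152-5p (-1.28) lost its call without ESC 2, NT-ESC 71 or NT-ESC 72 (adjusted p = 0.0532 to 0.152) and with upper quartile scaling (0.0655) or scaling without the 10 most abundant miRNAs (0.0505). The miR-200 family, which keeps cells epithelial by acting on Zeb1 and Zeb2, was lower in 7 of 9 and higher in 1 (median -1.51). miR-200c-3p fell from 18933, 16095 and 12449 to 1186 and 1692 (difference -3.46, adjusted p = 4.65e-07), and also miR-141-3p (-4.05), miR-141-5p (-3.50), miR-200c-5p (-2.25), miR-200a-5p (-1.51) and miR-429-3p (-1.46) fell. The call of miR-200c-5p was lost without NT-ESC 72 (adjusted p = 0.119). In the miR-23, miR-27 and miR-24 clusters, 8 of 13 were lower and 4 higher. The types did not overlap for any of the 13, where 86.1% of all miRNAs tested did not overlap. miR-27a-5p (-5.86), miR-24-2-5p (-5.75) and miR-3074-5p (-3.51) fell. miR-23a-3p, of the same transcript as miR-27a-5p and miR-24-2-5p, rose from 1409, 1386 and 1533 to 18540.0 and 17384 (difference 3.64, adjusted p = 5.91e-09). The rare strands miR-23b-5p (6.99) and miR-23a-5p (6.36) rose too.

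**Figure D5:**
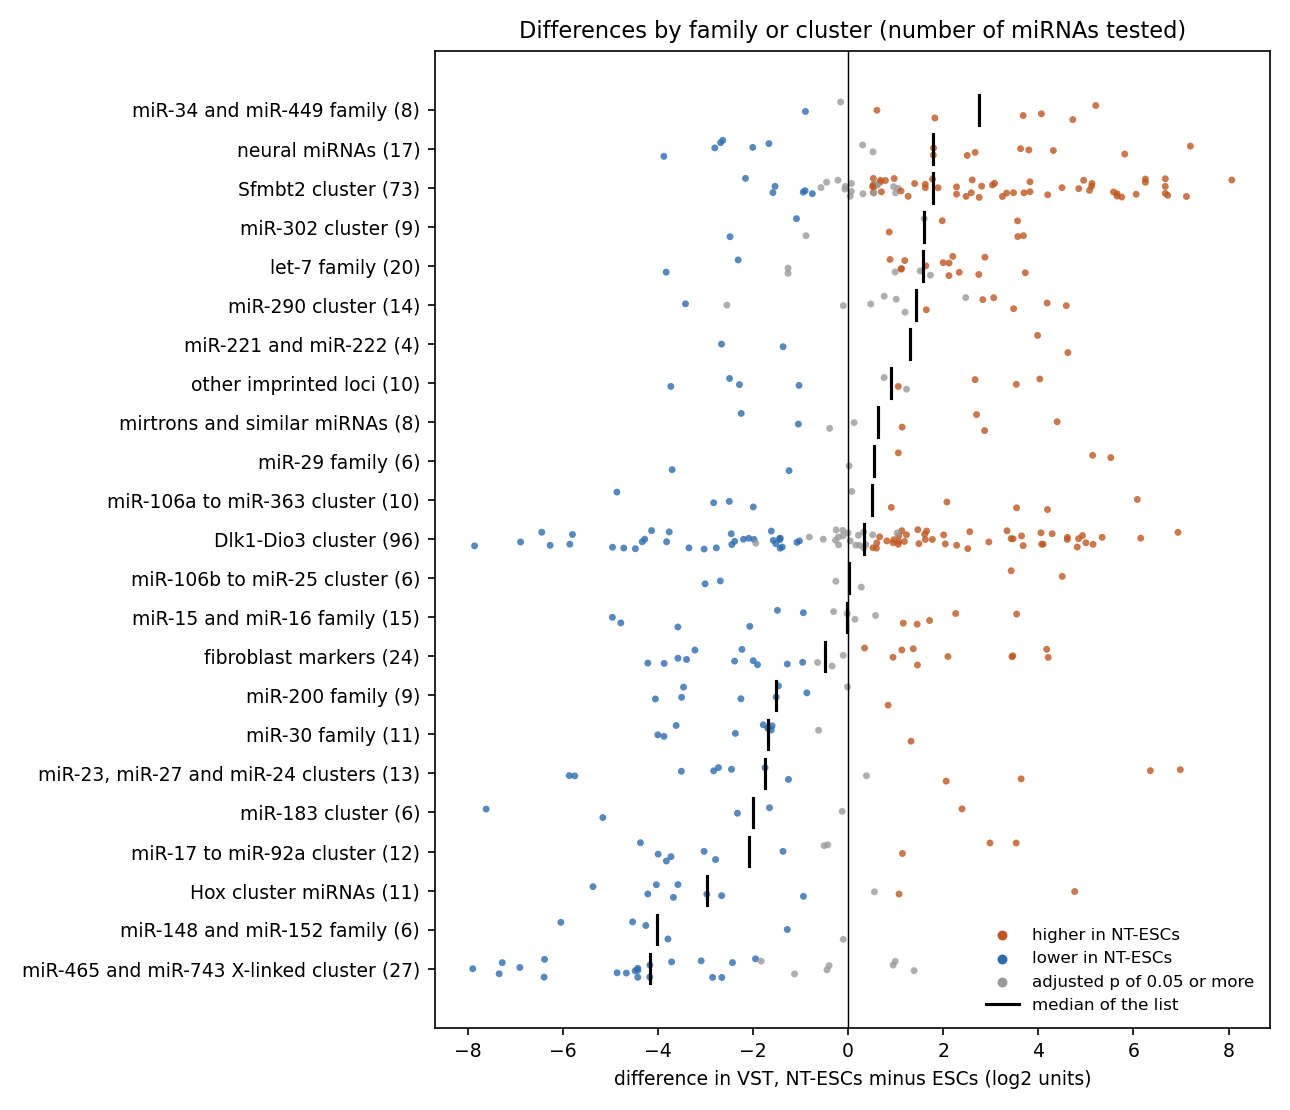
Difference in VST between NT-ESCs and ESCs (x axis, log2 units) of each tested miRNA in 23 families and clusters, ordered by the median (black bar) and coloured by the limma call at an adjusted p of 0.05, with vertical jitter only for visibility. The median is highest in the miR-34 and miR-449 family (2.75) and lowest in the X-linked miR-465 and miR-743 cluster (-4.17), and most lists hold calls in both directions.

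Other families were higher or divided. In the miR-34 and miR-449 family, of which p53 activates miR-34 to slow the cell cycle, 6 of 8 were higher and 1 lower. miR-34c-5p, by far the most abundant, was the lower one, at 48309.7, 59349 and 64489 normalized reads in ESCs and 30722 and 30477 in NT-ESCs (difference -0.90, adjusted p = 0.00147). miR-449c-5p (5.21), miR-34a-3p (4.73), miR-34b-5p (4.06), miR-449a-5p (3.68) and miR-34b-3p (1.83) were higher, miR-34a-5p stood at -0.16 (95% interval -0.71 to 0.40), and the call of miR-34c-3p (0.61) was lost without any of ESC 2, ESC 3, ESC 4 or NT-ESC 72 (adjusted p = 0.0507 to 0.296), in the model of 5 libraries (0.065), with TMM-type scaling (0.102), with voom (0.0523) and with no filter on reads (0.0544). Of 17 miRNAs known from neurons 9 were higher and 6 lower. miR-124-3p rose from 431, 403 and 549 to 8056 and 10292 (difference 4.31, adjusted p = 2.02e-06) and miR-129-2-3p from 15.4, 15.8 and 15.9 to 2331 and 2496, 154-fold higher (difference 7.20, adjusted p = 3.19e-10). miR-128-3p (3.63), miR-219-1-3p (3.80) and miR-129-1-3p (5.82, on 1 to 3 reads in each ESC library) were higher and miR-137-3p (-3.87) was lower. The miR-15 and miR-16 family, which acts on cyclins, was divided into 5 higher and 6 lower of 15 (median -0.02, which took either sign when 1 library was left out, from -0.13 without ESC 2 to 0.06 without ESC 3). miR-322-5p fell from 3439, 3586 and 3531 to 235 and 366 while miR-322-3p of its hairpin rose from 449.6, 562 and 696 to 2453 and 2956. In this family miR-503-3p (-4.78), miR-195-3p (-4.96) and miR-497-3p (-2.07) were lower and miR-15a-3p (3.54) higher. The call of miR-497-3p was lost without ESC 3, ESC 4, NT-ESC 71 or NT-ESC 72 (adjusted p = 0.0557 to 0.154).

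Both miRNAs of the miR-221 and miR-222 pair, known to act on the cell cycle inhibitor p27, gained their 3p and lost their 5p arm. miR-221-3p was higher by 4.62 (adjusted p = 7.03e-08) and miR-222-3p rose from 618, 663 and 701 to 12331 and 8865 normalized reads (difference 3.98, adjusted p = 1.05e-06), whereas miR-221-5p (-1.37) and miR-222-5p (-2.66) fell. Among miRNAs made without the Microprocessor complex, such as mirtrons, 4 of 8 were higher and 2 lower. miR-320-3p rose from 4287, 4799 and 5219.8 to 98649 and 101577 (difference 4.40, adjusted p = 1.91e-08) and miR-1839-5p from 3201, 3404 and 3782 to 22982 and 21962 (difference 2.70). miR-3102-3p (2.87) and miR-1839-3p (1.14) were higher and miR-1981-5p (-2.25) and miR-877-5p (-1.05) lower, while miR-484 (-0.39, 95% interval -0.87 to 0.09, lower in the model of 5 libraries with adjusted p = 0.0309 and with TMM-type scaling with adjusted p = 0.0361) and miR-1224-5p (0.13, -0.61 to 0.87) did not pass. The calls of miR-1839-3p and miR-877-5p were each lost without either NT-ESC library (adjusted p = 0.0518 to 0.101), the first also without ESC 2 (adjusted p = 0.0735) and in the model of 5 libraries (adjusted p = 0.0631) and the second without ESC 4 (adjusted p = 0.0561).

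Other miRNAs were among those with the smallest p in either direction. The lower ones included miR-28-3p, which fell from 12618, 12135 and 13607 to 493 and 513 normalized reads (difference -4.66, adjusted p = 2.95e-10), miR-184-3p, from 6381, 6297 and 6008 to 316 and 363 (difference -4.20), and miR-142-3p, a miRNA of blood cells, from 6229, 7847 and 7430.3 to 85.3 and 69.0 (difference -6.53). miR-434-5p (-4.95) and miR-300-3p (-4.72) of the Dlk1-Dio3 region were in the same set, with miR-140-5p, miR-183-5p, miR-182-5p, miR-24-2-5p and miR-148a-3p. The higher ones included miR-598-3p, from 41.5, 44.2 and 36.5 to 3448 and 2863 (difference 6.25, adjusted p = 3.19e-10), and miR-674-5p, from 244, 241 and 212 to 8183 and 8059.9 (difference 5.13), besides miR-129-2-3p, miR-29a-3p, miR-29c-3p, miR-107-3p, miR-294-5p, miR-297c-3p and the pair miR-669a-3p and miR-669o-3p, which have the same reads (3.82). In NT-iPSCs and iPSCs, miR-598-3p averaged 3259.6 and 2061 normalized reads, and miR-28-3p 616 and 940.4. miR-184-3p averaged 1779.8 and 1129 there.

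A few miRNAs were present in 1 type and at the limit of detection in the other. With at least 100 normalized reads in both NT-ESC libraries and at most 3 reads in each ESC library, there were 3. miR-669m-3p had 1.19, 2.11 and 3.42 normalized reads in ESCs and 278 and 305 in NT-ESCs, miR-106a-3p 1.19, 1.05 and 3.42 and 199.7 and 125, and miR-129-1-3p 2.37, 1.05 and 3.42 and 132 and 184. Each ESC value rests on 1 to 3 reads, so no ratio of normalized reads is given, and the VST differences cited above for miR-106a-3p and miR-129-1-3p are no measure of fold. No miRNA met the reverse condition. Averaged over a type, 3 reads per library stand for 3.38 normalized reads in ESCs and 2.47 in NT-ESCs. Summed over seeds, 363 of 465 seed totals differed (78.1%), 169 higher (36.3%) and 194 lower (41.7%), and 399 did not overlap between the types (85.8%). Of 70 seeds with at least 2 tested miRNAs, 11 had every miRNA higher, 18 every miRNA lower and 12 had calls in both directions. Among the most abundant seeds not described above, that of miR-21-5p went from 10.8% ± 1.15% (SD, n = 3) to 2.01% ± 0.139% (SD, n = 2) of the reads, that of miR-199a-3p from 0.153% ± 0.0176% to 2.87% ± 0.0278%, that of miR-103-3p and miR-107-3p from 1.59% ± 0.136% to 2.74% ± 0.0451%, and that of miR-290-5p, miR-292-5p and miR-293-5p from 2.59% ± 0.318% to 5.86% ± 0.418%. The last difference, 1.13 (95% interval -1.07 to 3.33), did not pass in the model of 12 libraries (adjusted p = 0.32) and did in the model of 5 (adjusted p = 0.000244).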

How the data were processed

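Small RNA libraries of 3 MEF, 3 ESC, 2 iPSC, 2 NT-ESC and 2 NT-iPSC samples were analysed. Per the study's methods, the authors stripped reads of adaptors, poor tags and contaminants, annotated them, and used DESeq to normalize and variance stabilize the miRNA reads. The authors deposited the resulting VST values, on a log2 scale, for 1042 miRNAs. The submitters' processing notes name mm8. The aligner is not given in the sources used here.

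The transformation was inverted, and whole reads (within 0.05 read) came back for 100% of the nonzero values. Normalized reads are these reads over the library's size factor. VST lies 2.04 above log2 of normalized reads at high counts and compresses changes at low counts, so that a difference there falls short of a log2 fold change. A floor of 3 reads was used, which covers counting error only.

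Tests used limma (3.58.1, in R 4.3.3) on the deposited VST values, since the table holds no counts. The model had 12 libraries, 5 group means and a trended prior, and p-values were adjusted by Benjamini and Hochberg over the 732 miRNAs tested, with calls at 0.05. Arms of a hairpin were compared by the 5p minus the 3p VST. Seed and hairpin totals were tested on log2 of summed normalized reads plus 1. The procedure was tested on simulated libraries, all drawn around the ESC means with the same spread. That setting does not cover miRNAs near the limit of detection only in MEFs, so it cannot vouch for their calls. P-values measure the spread between RNA batches within a line, pooled over the 5 groups of the model with MEFs among them. They do not measure how lines vary. Python 3.11.15 was used with pandas 2.3.3, numpy 2.4.6, matplotlib 3.10.9 and scipy 1.17.1.

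The miRNAs, lists and rules were chosen with earlier results of these data known. Named were every miRNA of lists with up to 8 tested and the 6 with the largest differences of longer ones, the 10 smallest p in each direction without overlap, the 10 most abundant miRNAs and seeds of each type, the 8 smallest p of the arm ratios in each direction, and miRNAs with at least 100 normalized reads in 1 type and at most 3 reads in the other. Some others were named for a shared seed, hairpin or transcript after their values were seen. Alternatives covered scaling, filters, the groups in the model, the transformation and leaving out each library. Mature sequences and hairpin positions came from RefSeq (GRCm38.p6). A check of base composition was void, since 79.7% of the 860 miRNAs had a sequence, under the 80% required.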

Additional observations from a re-analysis of the deposited data

How the results depend on the processing

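Over all alternatives for the 732 miRNAs, the number of calls stayed within 1.5 times of 555. Leaving out 1 library gave 500 to 538 calls, 257 to 284 higher and 243 to 256 lower. For the arm ratios the range was 181 to 193 calls (73 to 82 toward 5p, 105 to 112 toward 3p), for seed totals 333 to 353 (155 to 165 higher, 178 to 188 lower) and for hairpin totals 341 to 368 (171 to 188 higher, 159 to 180 lower). Under a minimum of 100 reads for each library of a type, 134 hairpins could be tested for their arms, of which 104 changed, 37 toward 5p and 67 toward 3p, and 111 of 286 seed totals were higher; fewer features were tested there. Leaving out the most abundant miRNA of each seed left 67 seeds, of which 53 differed, 25 higher and 28 lower, and turned the seed total of GGUAGAC to 4.29 (adjusted p = 1.53e-08), which is then the value of miR-1193-5p alone. Of 209 single results, 186 kept their direction and their side of the threshold under every alternative tried. Requiring 3 reads in 2 libraries would have left 776 of the 860 miRNAs, and a value above the minimum in every library of a type 813. In log2 of normalized reads, TMM-type scaling shifted the difference between the types by -0.13 and upper quartile scaling by 0.24. Scaling without the 10 most abundant miRNAs shifted it by 0.11. In VST the shift was not the same for all miRNAs. None of these scalings reversed a named miRNA, though each changed some calls near the threshold. Of 563 calls under upper quartile scaling 316 were higher, and of 554 with TMM-type scaling 274, against 291 of 555 as reported. No paired analysis was possible because ESC and NT-ESC libraries share no replicate numbers. With a lone NT-ESC library left, that library was assumed to vary like the other groups.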
